A study of Mus musculus with 12 samples.

Results

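The genes described here are *Slpi*, which encodes secretory leukocyte protease inhibitor (SLPI), the serine protease genes *Elane*, *Prtn3* and *Ctsg*, and *Grn*, which encodes progranulin. They were chosen by symbol, and all 5 were listed among the 23284 genes measured in sorted mouse osteoblasts and the 24346 genes measured in MC3T3-E1 cells, a mouse preosteoblast line from calvaria. RNA-Seq values of 12 libraries were compared, 6 from each experiment. For the first, Col2.3-ECFP mice, in which a type I collagen promoter fragment drives a cyan reporter in mature osteoblasts, received injections of vehicle or of PTH(1-34), an N-terminal piece of parathyroid hormone, over 3 weeks. PTH was given at 40 µg/kg a day, 5 days a week, and 7AAD-Lin-CD45-ECFP+ cells were sorted 24 h after the last injection, giving 3 vehicle and 3 PTH libraries. The mice were females and 12 weeks old, according to the methods. All 6 libraries carry the reporter. For the second, 3 mock and 3 *Slpi*-overexpressing libraries were made from subconfluent MC3T3-E1 cells. According to the methods, the overexpressing cells received a retroviral vector with the full-length mouse *Slpi* cDNA and a puromycin-resistance gene, and the mock cells the vector without *Slpi*. Nothing in the labels says how many animals or separate cultures the libraries stand for. The methods state in general that biological replicates came from different mice, without naming these libraries. The *p* values therefore measure the spread between these libraries, which may be technical.

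SLPI is a small secreted protein with a pair of WAP domains that binds and inhibits neutrophil elastase and cathepsin G, the products of *Elane* and *Ctsg*. These enzymes and proteinase 3, the product of *Prtn3*, are made in neutrophil precursors in the bone marrow and stored in azurophil granules, and SLPI inhibits proteinase 3 poorly. Progranulin is a secreted and lysosomal glycoprotein that elastase and proteinase 3 can cut into granulin peptides, and SLPI binds progranulin and protects it from this cleavage. *Slpi* itself is expressed in epithelia and myeloid cells.

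The values are FPKM, fragments of a gene scaled to the length of its transcript and the size of the library, so that levels can be compared between genes. A gene entered the limma test, made on log2(FPKM + 1), where any of the 6 libraries of its experiment reached 1 FPKM, and it was called when its adjusted *p* was under 0.05. In sorted osteoblasts 13004 genes were tested, and 6.38% of them were called higher (830 genes) and 8.85% lower (1151 genes) in the PTH libraries. Rescaled to TPM, which gives every library the same sum, 479 were higher and 1095 lower. In MC3T3-E1 cells 11466 were tested, and 31.9% were called higher (3658 genes) and 28.9% lower (3315 genes) in the *Slpi* libraries, against 2464 and 4574 after that rescaling. Depth was estimated from the FPKM step that 1 read makes in low-expressed genes, as 4590000 to 8140000 reads in the sorted cells and 22570000 to 26040000 reads in the MC3T3-E1 cells. PTH replicate 3 stood apart from the other sorted libraries in blood and epithelial genes. Its *Ptprc*, the gene of CD45, was at 0.930 FPKM against 8.53 to 59.2 in the other 5, and *Klk1*, a kallikrein named after its values were seen, was at 0.167 FPKM against 46.7 to 76.4. The osteoblast genes *Bglap* (6963 to 14280 FPKM), *Alpl* (185 to 378) and *Sp7* (59.2 to 116) were high in all 6 sorted libraries. *Col1a1* and *Col1a2* were between 24170 and 26655 FPKM in vehicle replicates 1 and 2 but were listed at 0 in the other 4 sorted libraries, so a value of 0 in these files can be a failed estimate and is given only as listed at 0.

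The promoters of the protease genes share short letters that the choice of genes did not use. The stretches below end at the base before the RefSeq start of each gene (GRCm38.p6, the build of the files) and run 5′ to 3′ on the strand of the gene, and capitals mark the motif matches. They are shown because *Elane* and *Prtn3* are neighbours with a like arrangement of matches, while *Slpi* and *Ctsg* differ from them. In GENCODE M21 the start of *Elane* and that of the longest coding transcript of *Prtn3* (79879614) lie within the printed stretches, and the whole annotated span of *Prtn3* begins upstream of its stretch.
*Elane*, chr10:79886192-79886311, plus strand: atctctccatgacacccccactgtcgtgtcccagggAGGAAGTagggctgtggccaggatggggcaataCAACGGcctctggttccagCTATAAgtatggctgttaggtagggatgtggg
*Prtn3*, chr10:79879547-79879666, plus strand: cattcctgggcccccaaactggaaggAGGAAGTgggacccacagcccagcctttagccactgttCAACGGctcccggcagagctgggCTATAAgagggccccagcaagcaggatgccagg
*Ctsg*, chr14:56102575-56102794, minus strand: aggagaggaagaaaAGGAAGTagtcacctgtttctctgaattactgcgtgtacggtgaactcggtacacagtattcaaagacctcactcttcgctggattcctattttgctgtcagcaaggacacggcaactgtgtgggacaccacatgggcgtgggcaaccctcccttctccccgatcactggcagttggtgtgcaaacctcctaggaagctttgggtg
*Slpi*, chr2:164356508-164356707, minus strand: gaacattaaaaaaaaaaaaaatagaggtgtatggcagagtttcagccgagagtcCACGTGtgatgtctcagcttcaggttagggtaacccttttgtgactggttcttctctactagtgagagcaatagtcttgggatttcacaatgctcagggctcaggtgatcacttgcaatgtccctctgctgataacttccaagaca

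Letters resembling sites of 6 kinds were sought on both strands in the 250 bases before each start. AGGAAGT is an ETS-type site of the kind PU.1 binds, and CAACGG is a MYB-type site. CTATAA is a TATA-type box, and CACGTG is an E-box. TTGCNNAA is a C/EBP-type site. TGACG is the short form of the cAMP response element, which is contained in its full form, TGACGTCA. The motifs were chosen with these sequences in view. AGGAAGT occurred once in *Elane*, *Prtn3* and *Ctsg*, at bases -84 to -78, -94 to -88 and -206 to -200, and in 7.69% of the 32851 RefSeq promoters searched. CAACGG lay at -51 to -46 in *Elane* and -56 to -51 in *Prtn3* (4.05% of promoters), and CTATAA at -32 to -27 and -33 to -28 (7.26%). By the GENCODE M21 starts given above, CTATAA in both genes and CAACGG in *Elane* lie after the start. *Slpi* held CACGTG at -146 to -141 (6.02%) and, upstream of the printed stretch, TTGCNNAA at -241 to -234 on the other strand (9.56%). Neither TGACG (17.8% of promoters) nor TGACGTCA (1.55%) was found in the 250 bases of any of the 5 genes, and *Grn* held none of the 7 motifs. A match is a run of letters only, and no match says nothing about a factor.

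*Slpi* rose in the PTH-treated osteoblasts. It is a gene on mouse chromosome 2 (164354070 to 164389095, minus strand, mm10), with a longest coding transcript of 4 exons and 876 bases at 164354070 to 164356507. The vehicle libraries held 1.64, 2.38 and 2.62 FPKM in replicates 1, 2 and 3. The PTH libraries held 37.5, 19.8 and 27.2 FPKM. Every PTH library was above every vehicle library, and the lowest PTH value lay far above the highest vehicle value. The mean was 2.21 ± 0.513 with vehicle and 28.2 ± 8.88 with PTH (SD, n = 3), a ratio of 12.7. The log2 fold change was 3.15 ± 0.24 (SE, 95% CI 2.58 to 3.72, limma, adjusted *p* = 0.0131), the 14th largest rise among the 13004 genes. The two-sided exact permutation test gave *p* = 0.10, the smallest that 3 libraries against 3 allow. The call was lost without vehicle replicate 1 (adjusted *p* = 0.0734) or without vehicle replicate 2 (adjusted *p* = 0.0736), where at most 1 of all genes tested was called, and the log2 fold change stayed between 2.93 and 3.37 whichever library was left out. In the vehicle libraries the level rested on an estimated 8, 10 and 18 reads, and in the PTH libraries on 213, 127 and 194. Within a library, *Slpi* stood above 54.3% to 59.8% of the listed genes with vehicle and above 87.9% to 93.5% with PTH.

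**Figure D1:**
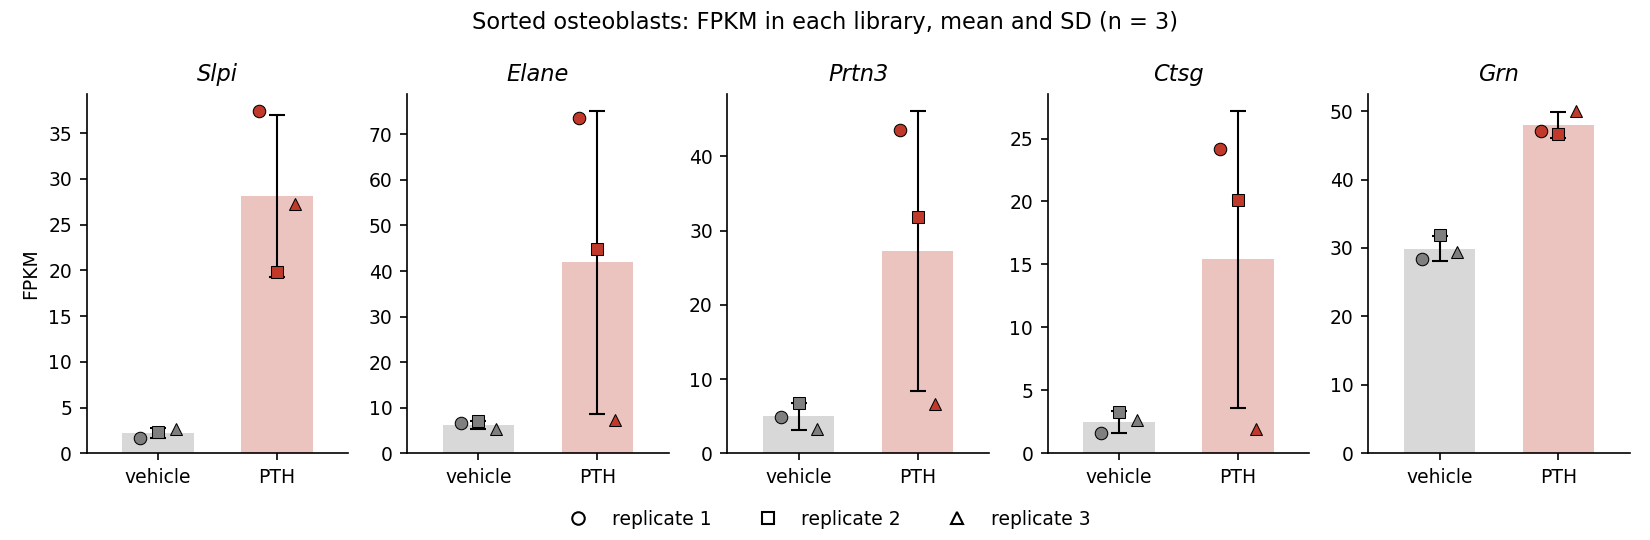
FPKM of *Slpi*, *Elane*, *Prtn3*, *Ctsg* and *Grn* (y axes, linear, each with its own scale) in vehicle and PTH libraries of sorted osteoblasts; points are libraries, with a symbol for each replicate number, bars are means and whiskers are SD (n = 3). *Slpi* and *Grn* were higher in every PTH library, while the 3 protease genes were high in PTH replicates 1 and 2 and near the vehicle values in PTH replicate 3.

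*Elane*, the gene of neutrophil elastase, was higher in every PTH library but did not pass the test. It lies on chromosome 10 (79886247 to 79888215, plus strand) and has a transcript of 5 exons and 984 bases. The vehicle libraries held 6.59, 6.98 and 5.25 FPKM and the PTH libraries 73.7, 44.9 and 7.36. PTH replicates 1 and 2 stood well above all others, whereas PTH replicate 3 was just above the highest vehicle library, so the groups did not overlap. The means were 6.27 ± 0.905 and 42.0 ± 33.2 FPKM (SD, n = 3), a ratio of 6.69. The log2 fold change was 2.08 ± 0.728 (SE, 95% CI 0.36 to 3.80, limma, adjusted *p* = 0.0969).

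*Prtn3*, the gene of proteinase 3, has an annotated span that starts 11.77 kb upstream of *Elane* on the same strand (79874476 to 79883174) and overlaps *Plppr3*. It had 4.93, 6.78 and 3.22 FPKM with vehicle and 43.5, 31.8 and 6.59 FPKM with PTH. Again PTH replicates 1 and 2 were high, and PTH replicate 3 lay within the vehicle range. The means were 4.98 ± 1.78 and 27.3 ± 18.9 FPKM (SD, n = 3), and the log2 fold change of 1.94 ± 0.628 (SE, 95% CI 0.46 to 3.42) did not pass the test (limma, adjusted *p* = 0.0791). *Ctsg*, the gene of cathepsin G on chromosome 14 (56099881 to 56102574, minus strand), had 1.58, 3.25 and 2.65 FPKM with vehicle and 24.1, 20.1 and 1.97 FPKM with PTH. It had the same pattern, with PTH replicate 3 inside the vehicle range. The means were 2.49 ± 0.849 and 15.4 ± 11.8 FPKM (SD, n = 3), and the log2 fold change was 1.77 ± 0.766 (SE, 95% CI -0.039 to 3.57, limma, adjusted *p* = 0.157). The exact permutation *p* was 0.10 for *Elane*, 0.20 for *Prtn3* and 0.30 for *Ctsg*.

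The outcome of all 3 protease genes turned on PTH replicate 3. Without this library the log2 fold changes were 3.02 for *Elane* (adjusted *p* = 0.00188), 2.72 for *Prtn3* (adjusted *p* = 0.00431) and 2.75 for *Ctsg* (adjusted *p* = 0.00255), and all 3 were called. In this library the estimated reads were 59 for *Elane*, 55 for *Prtn3* and 16 for *Ctsg*, against 471, 290 and 157 in PTH replicate 1, although it was the deepest of the 6. *Slpi* did not share the pattern. Its 27.2 FPKM in PTH replicate 3 lay between the values of the other PTH libraries, and its log2 fold change without that library was 3.15 (adjusted *p* = 0.00284).

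Of the 5 genes, *Slpi* and *Grn* were called higher with PTH, against 6.38% of all genes tested. The groups did not overlap for *Slpi*, *Elane* and *Grn*, which 19.5% of genes showed in the same direction. By a looser rule, at least 2-fold at unadjusted *p* under 0.05, *Slpi*, *Elane* and *Prtn3* passed, against 1.24% of genes. All 5 had at least 1.58 FPKM in every sorted library, so none entered the test only through its PTH values.

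The ratio of *Slpi* RNA to the RNA of the 3 protease genes differed among libraries. The FPKM of *Elane*, *Prtn3* and *Ctsg* summed to 13.1, 17.0 and 11.1 in the vehicle libraries and to 141, 96.7 and 15.9 in the PTH libraries. *Slpi* was 0.125, 0.140 and 0.236 times that sum with vehicle, 0.265 and 0.205 times in PTH replicates 1 and 2, and 1.71 times in PTH replicate 3. Thus the FPKM of *Slpi* exceeded the sum of the protease genes in PTH replicate 3 and in none of the other 5 libraries. These are RNA values of bulk libraries, and protein amounts were not measured in them. The shares among the protease genes moved little in comparison. *Elane* made up 41.0% to 52.1% of the sum over the 6 libraries, *Prtn3* 29.0% to 41.4% and *Ctsg* 12.04% to 23.8%. *Mpo*, the myeloperoxidase of the same granules, was 0.840 to 1.24 times *Elane* in each library.

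**Figure D2:**
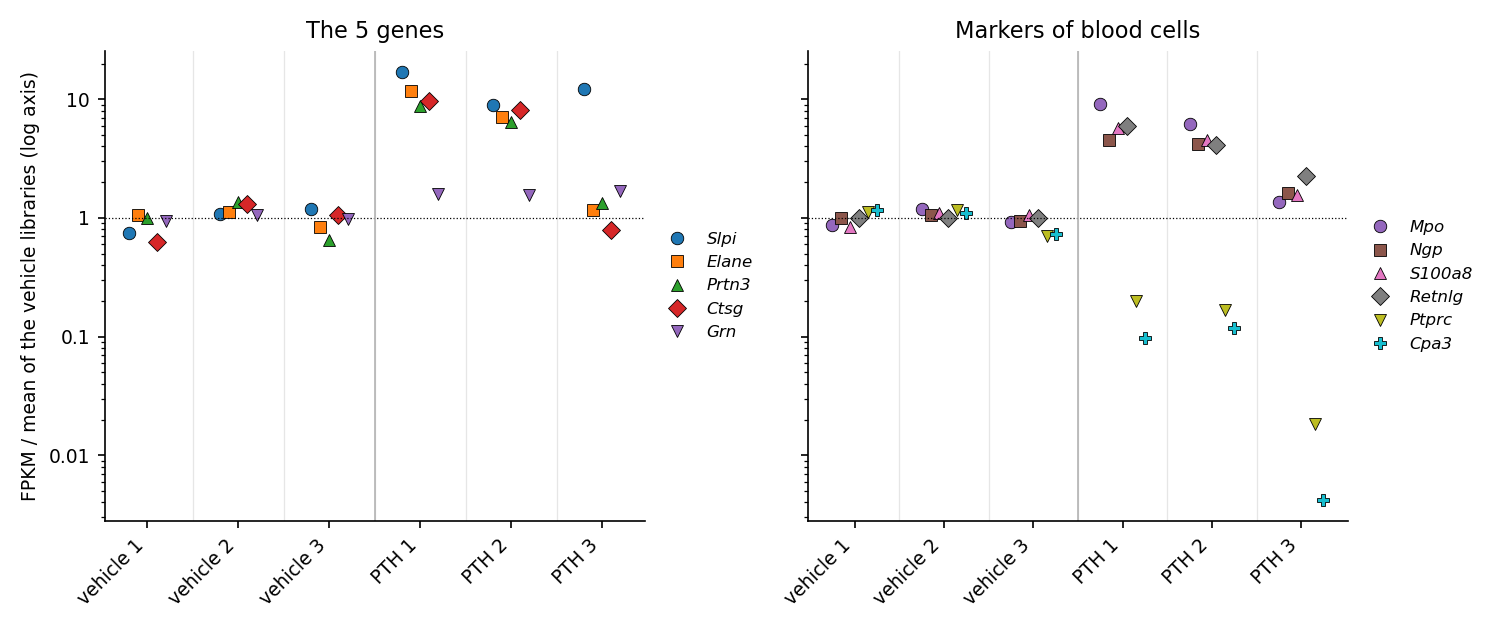
FPKM divided by the mean of the 3 vehicle libraries (y axis, log scale) in each sorted library (x axis), for the 5 genes at left and for blood cell markers at right; each point is 1 gene in 1 library and the dotted line marks the vehicle mean. In PTH replicate 3 *Slpi* remained high, the protease genes and *Mpo* lay close to the vehicle mean, and *Ptprc* and *Cpa3* were at their lowest.

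Many listed markers of neutrophils, but not all, were higher in PTH replicates 1 and 2, like the protease genes. The 6 genes of the azurophil granule list, which holds the 3 proteases, summed to 25.1, 32.6 and 23.1 FPKM with vehicle and to 221, 153 and 32.8 with PTH. Its other members were *Mpo*, *Prss57* and *Ms4a3*, a membrane protein gene of granulocyte precursors. *Ms4a3* had 0.291 to 1.48 FPKM with vehicle and 10.8, 9.78 and 2.08 with PTH and was the 1 member called higher (log2 fold change 2.09, adjusted *p* = 0.0428). The secondary granule list, made at a later stage, summed to 89.3 to 110 FPKM with vehicle and to 463, 396 and 140 with PTH. Of its 7 members, 4 were called higher, against 6.38% of all genes tested. The mature neutrophil list summed to 302 to 378 FPKM with vehicle and to 1843, 1553 and 571 with PTH. Of its 8 listed members, 5 were called higher, against 6.38% of all genes tested. *Mmp9* (log2 fold change -0.56), *Cxcr2* (0.003) and *Stfa2l1* (0.31), named after their values were seen, were not called. *Csf3r*, also named after its values were seen, was called but reached 1 FPKM in PTH libraries only. Some called members were above every vehicle library in PTH replicate 3 as well. *Retnlg* had 12.9 FPKM in each vehicle library and 76.9, 53.3 and 29.3 with PTH. *Il1b* had 2.10 to 2.51 FPKM with vehicle and 10.7, 10.7 and 6.98 with PTH. By contrast, *Camp* (32.5 FPKM) and *Chil3* (10.1 FPKM) of the secondary granule list lay within their vehicle ranges in that replicate. *S100a8*, the most abundant gene of this list, had 133, 177 and 171 FPKM with vehicle and 922, 724 and 252 with PTH. *Elane* was 3.08% to 4.94% of *S100a8* with vehicle and 7.99%, 6.20% and 2.93% of it with PTH. *Slpi* was 1.23% to 1.54% of *S100a8* with vehicle and 4.07%, 2.73% and 10.8% with PTH. The part of neutrophil RNA in the values of *Slpi*, the proteases and *Grn* was not tested, and in bulk libraries more cells of a type and more RNA per cell cannot be told apart.

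*Ptprc*, the mast cell gene *Cpa3* and 3 T cell genes were called lower with PTH, while other members of the same lists were called higher or were not called. Of all genes tested, 8.85% were called lower and 6.38% higher. *Ptprc*, absent from the surface of the sorted cells by the CD45- gate, had 56.9, 59.2 and 35.9 FPKM with vehicle and 10.1, 8.53 and 0.930 with PTH, a log2 fold change of -3.10 (adjusted *p* = 0.0270). The mast cell and basophil list summed to 49.5 to 76.9 FPKM with vehicle and to 5.12 to 14.5 with PTH, almost all of it *Cpa3*, a mast cell carboxypeptidase (46.7 to 74.0 FPKM and 0.269 to 7.52, log2 fold change -3.90, adjusted *p* = 0.0193). Of its 4 tested members 1 was called lower and 1 higher. The latter, *Hdc*, the histidine decarboxylase gene, named after its values were seen, had 1.08 to 1.74 FPKM with vehicle and 4.27 to 5.61 with PTH (log2 fold change 1.35, adjusted *p* = 0.0138). *Mcpt4*, *Ms4a2* and *Fcer1a* were listed at 0 in all 6 libraries. The lymphocyte list summed to 86.8 to 126 FPKM and to 3.93 to 24.4, and its most abundant gene was *Cd3g*, a part of the T cell receptor complex. Of its 7 tested members, *Cd3d*, *Cd3e* and *Cd3g* were called lower and the other 4 were not called. *Cd3d* reached 1 FPKM in vehicle libraries only and so entered the test through them. The monocyte and macrophage list, led by *Lyz2*, summed to 40.8, 71.7 and 47.3 FPKM with vehicle and to 139, 132 and 40.3 with PTH, with 1 of 7 tested members called higher. That member, *Cd14*, a receptor for lipopolysaccharide named after its values were seen, had 2.79, 4.62 and 3.72 FPKM with vehicle and 8.79, 10.1 and 5.97 with PTH, so PTH replicate 3 was above every vehicle library. The osteoclast list summed to 159 to 167 FPKM and to 262 to 295, most of it the cathepsin gene *Ctsk* (134 to 154 and 225 to 282 FPKM). *Ctsk* was called higher, while *Acp5* (log2 fold change 1.09) and *Mmp9* (-0.56) were not called. *Oscar*, *Ocstamp*, *Dcstamp* and *Calcr* had at most 0.480 FPKM. *Ctsk* was not limited to sorted cells, with 75.3 to 81.9 FPKM in the MC3T3-E1 libraries. The erythroid list, led by *Hbb-bs* (listed as *Beta-s*), summed to 409 to 480 FPKM and to 521 to 598 with none of 4 tested members called, and the endothelial list stayed between 0.999 and 5.73 FPKM.

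The protease genes were not followed by all genes of their own pathway. None of the 7 genes of the neutrophil serine protease set, which includes *Elane*, *Prtn3* and *Ctsg*, was called in either direction. Of all genes tested, 6.38% were called higher and 8.85% lower. The median log2 fold change of the set was 1.77, against 0.0066 for all genes tested. *Prss57*, which encodes a further azurophil granule protease and has its lowest coordinate at -93.0 kb from that of *Prtn3*, had 5.36 to 5.995 FPKM with vehicle and 4.82 to 6.75 with PTH (log2 fold change 0.02 ± 0.144, SE, adjusted *p* = 0.928). *Ctsc*, whose product activates these proteases, had 16.6 to 21.9 FPKM with vehicle and 16.6 to 18.2 with PTH. *Srgn*, the granule proteoglycan, had 59.9 to 95.2 FPKM and 27.5 to 60.4, and both are named after their values were seen. The smallest *p* of the set belonged to *Mpo* (log2 fold change 1.97 ± 0.614, SE, adjusted *p* = 0.0723).

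*Grn* rose by less than *Slpi* but with little spread. It lies on chromosome 11 (102430315 to 102437048, plus strand), and its longest coding transcript has 13 exons and 2340 bases. The vehicle libraries held 28.3, 31.9 and 29.4 FPKM and the PTH libraries 47.1, 46.7 and 50.1. The groups did not overlap, and PTH replicate 3 was the highest of all. The means were 29.9 ± 1.82 and 48.0 ± 1.85 FPKM (SD, n = 3), a ratio of 1.61. The log2 fold change was 0.67 ± 0.0938 (SE, 95% CI 0.45 to 0.89, limma, adjusted *p* = 0.0143), with an exact permutation *p* of 0.10. As for *Slpi*, the call was lost without vehicle replicate 1 (adjusted *p* = 0.0768) or 2 (adjusted *p* = 0.0736), with log2 fold changes between 0.63 and 0.71 over the left-out libraries. *Grn* was the most abundant of the 5 genes in every vehicle library and in PTH replicates 2 and 3, and *Elane* exceeded it in PTH replicate 1. *Slpi* was 0.0579 to 0.0894 times *Grn* with vehicle and 0.795, 0.424 and 0.544 times with PTH.

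Some of the genes that bind, sort or process progranulin were called higher as well. Of 17 tested partners other than *Grn*, 8 were called higher and 0 lower, where 6.38% of all genes were called higher, and 9 did not pass. The list of 18 with *Grn* had a median log2 fold change of 0.49, against 0.0066 for all genes tested. Without vehicle replicate 1 or 2 none of the 17 was called, and without PTH replicate 1 or 3 only 2 and 5 were. *Hexa*, a lysosomal hexosaminidase subunit, had 48.9 to 58.8 FPKM with vehicle and 89.8 to 99.3 with PTH (log2 fold change 0.83, adjusted *p* = 0.0138). *Ctsl*, a cathepsin that cuts progranulin into granulins in lysosomes, had 92.2 to 108 FPKM and 150 to 163 (log2 fold change 0.64, adjusted *p* = 0.0162). The other called partners, named after their values were seen, were the receptor *Sort1*, the co-transported *Psap*, the proteases *Ctsb*, *Ctsd* and *Lgmn* and the lysosomal regulator *Tfeb*, with log2 fold changes from 0.48 to 0.84. *Lrp1* and *Tmem106b* were also named after their values were seen. *Lrp1*, which takes up prosaposin-bound progranulin, did not overlap between groups but was not called (log2 fold change 0.54, adjusted *p* = 0.0805). *Tmem106b*, a lysosomal membrane gene, differed by -0.00073 (adjusted *p* = 0.997). None of the 4 tested metalloproteinases that cleave progranulin was called, the smallest *p* belonging to *Mmp14* (log2 fold change 0.30, adjusted *p* = 0.0929), *Adamts12* (0.41, adjusted *p* = 0.279) and *Mmp9* (-0.56, adjusted *p* = 0.480).

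**Figure D3:**
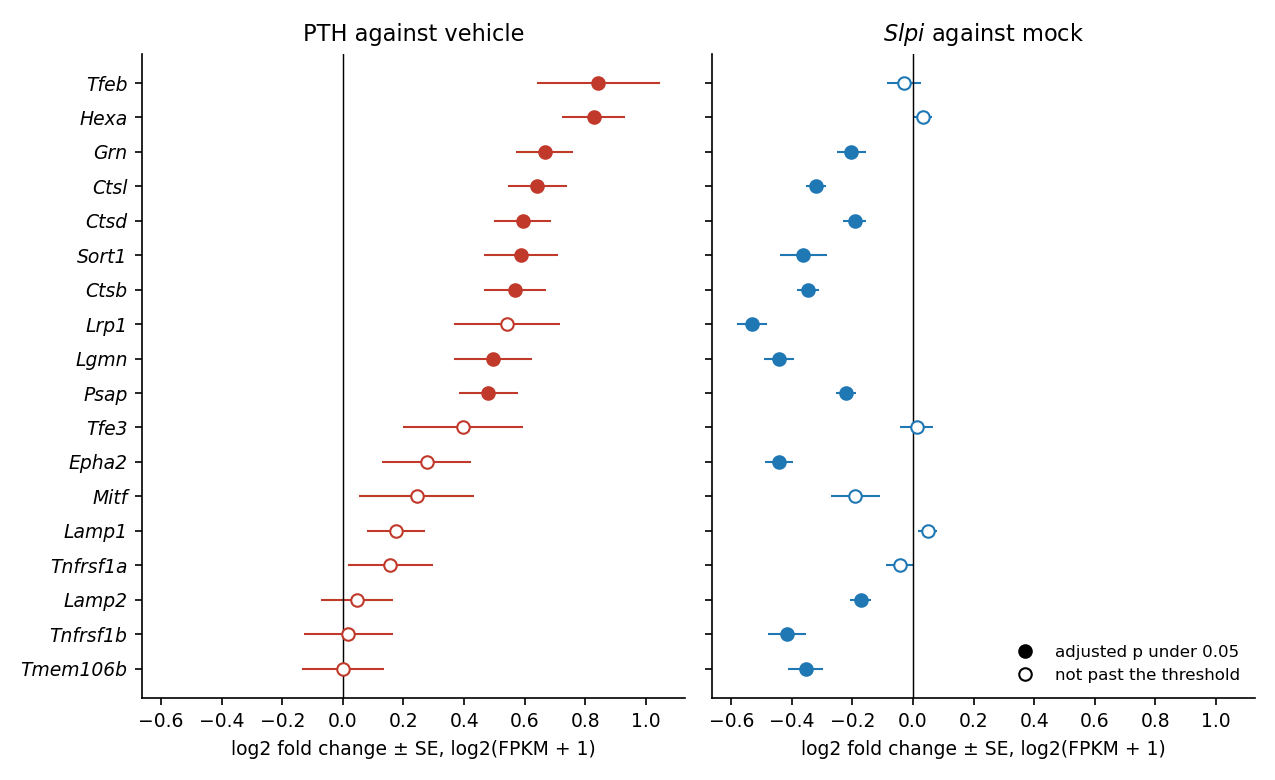
Log2 fold changes on the log2(FPKM + 1) scale (x axes) of *Grn* and 17 partner genes of progranulin (y axis) for PTH against vehicle and for *Slpi* against mock; points are limma estimates, whiskers are SE, and filled points passed the adjusted threshold. Of the 17 partners, 8 were called higher with PTH and 11 lower with *Slpi*.

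*Slpi* was the only member of the WAP domain family called with PTH. Of 23 family genes 6 were tested and 1 was called higher, against 6.38% of all genes tested, and 13 were listed at 0 in every sorted library. *Wfdc21*, a further secreted WAP gene, had 4.76, 7.78 and 3.56 FPKM with vehicle and 20.1, 14.7 and 6.79 with PTH (log2 fold change 1.16, adjusted *p* = 0.0902), and is named after its values were seen. Of 9 tested serpins and macroglobulins that inhibit the same enzymes, 1 was called higher and 2 lower, against 6.38% and 8.85% of all genes tested. *Serpina1a*, 1 of several near-identical α1-antitrypsin genes whose reads may be split between copies, had 0 to 0.310 FPKM with vehicle and 0.956 to 1.48 with PTH (log2 fold change 1.03, adjusted *p* = 0.0291). This gene reached 1 FPKM in PTH libraries only and so entered the test through the group where it was high. *Serpinb6b*, an intracellular serpin, had 4.83 to 8.30 FPKM and 0.811 to 1.27 (log2 fold change -1.80, adjusted *p* = 0.0133). *A2m*, α2-macroglobulin, had 5.88 to 10.4 FPKM and 3.52 to 3.87 (log2 fold change -0.80, adjusted *p* = 0.0479), and is named after its values were seen.

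Most listed binding partners of SLPI and NF-κB pathway genes were not called, as was so for all genes tested. Of 13 binding partners and NF-κB pathway genes, 2 were called higher and 1 lower, against 6.38% and 8.85% of all genes tested. *Anxa2*, annexin A2, to which SLPI binds on membranes, had 294 to 341 FPKM with vehicle and 490 to 539 with PTH (log2 fold change 0.69, adjusted *p* = 0.0141). The NF-κB subunit genes were *Rela* (log2 fold change 0.55, adjusted *p* = 0.0467) and *Nfkb1* (-0.36, adjusted *p* = 0.0484). None of 8 transcription factors of granule genes was called. Those with the smallest *p* were *Gfi1* (log2 fold change -0.63, adjusted *p* = 0.0827), *Cebpe* (0.91, adjusted *p* = 0.0874) and *Spi1*, which encodes PU.1 (0.83, adjusted *p* = 0.0921). *Cebpe* had 0.152, 0 and 0.340 FPKM with vehicle and 1.77, 1.57 and 0.433 with PTH, and so entered the test only through the group where it was high. *Spi1* had 1.11, 1.24 and 0.831 FPKM with vehicle and 3.11, 3.99 and 1.39 with PTH. Serine proteases of other kinds did not follow *Elane*. None of 2 tested mast cell and cytotoxic cell proteases (*Mcpt8* and *Tpsg1*) was called. Of 8 tested digestive and epithelial proteases only *Plat*, the tissue plasminogen activator, was (log2 fold change 0.58, adjusted *p* = 0.0368). *Cela1*, an elastase of the pancreatic family (-1.55, adjusted *p* = 0.154), and *Prss8*, prostasin (-0.66, adjusted *p* = 0.175), had the next smallest *p*.

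Genes beside the 5 showed no common shift. Around *Elane* and *Prtn3*, *Ptbp1*, a splicing regulator, had a mean of 148 FPKM with vehicle and 151 with PTH (log2 fold change 0.01, adjusted *p* = 0.953). *Cfd*, 4.61 kb downstream of the *Elane* start and the gene of complement factor D, had 5.06 and 2.48 FPKM (-0.90, adjusted *p* = 0.403). *Palm* (-0.25) and *Med16* (0.24) were not called, and *Kiss1r* stayed under 1 FPKM. Next to *Slpi*, the seminal vesicle genes *Svs3a*, *Svs6* and *Svs5* were listed at 0 in all 6 libraries. On its other side *Matn4*, a matrilin (0.62, adjusted *p* = 0.0620), and *Sdc4*, a syndecan (0.24, adjusted *p* = 0.240), were not called, and *Rbpjl* stayed under 1 FPKM. *Ctsg* lies among mast cell protease and granzyme genes, and *Mcpt2*, *Mcpt4*, *Mcpt8*, *Gzme*, *Gzmd* and *Gzmg* had at most 1.26 FPKM in any sorted library. Beside *Grn*, *Fam171a2* was called (0.89, adjusted *p* = 0.0331). Its annotated span overlaps that of *Grn*, and without strand their reads cannot be told apart. *Itga2b*, an integrin gene of platelets and megakaryocytes with its lowest coordinate 22.98 kb from the *Grn* start, had 0.211 and 8.67 FPKM (2.44, adjusted *p* = 0.0872). *Rundc3a*, *Slc25a39*, *Slc4a1* and *Gpatch8* had log2 fold changes between -0.55 and 0.12, none of them called.

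**Figure D4:**
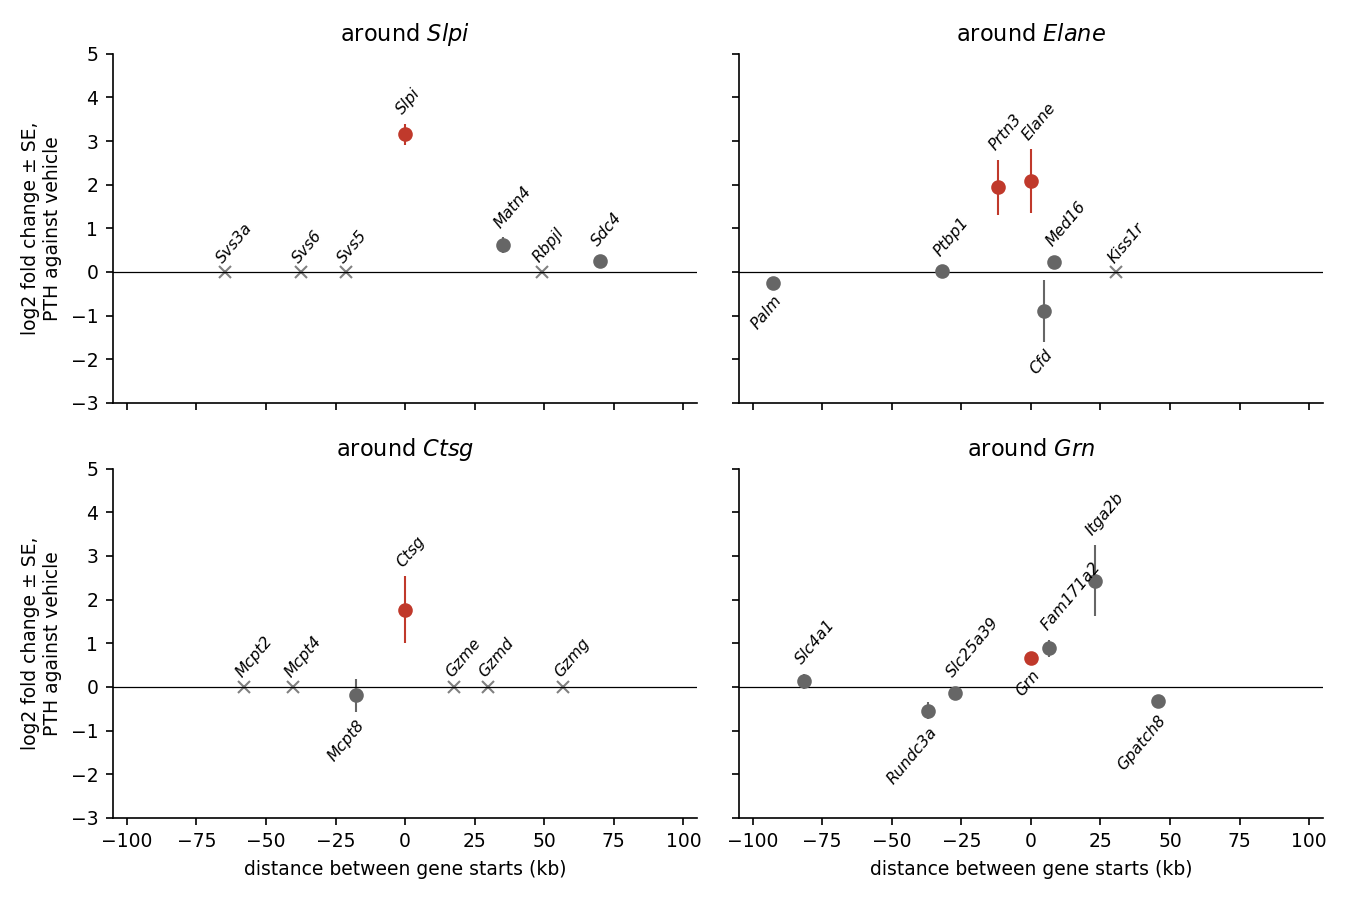
Log2 fold change ± SE for PTH against vehicle (y axis) of *Slpi*, *Elane*, *Ctsg* and *Grn*, each with its 3 nearest listed protein-coding genes per side, by distance in kb (x axis). Distances run between the lowest coordinates of the annotated genes, which for the minus-strand genes *Slpi* and *Ctsg* lie at the 3′ end. Red points are members of the 5, grey points other genes, and crosses at 0 genes that were not tested. *Prtn3* and *Elane* stood at 1.94 and 2.08 between *Ptbp1* at 0.01 and *Cfd* at -0.90.

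The members fell into separate patterns over the 6 sorted libraries, given as Pearson's r of log2(FPKM + 1) among 7031 genes with a mean of at least 5 FPKM, as a description over libraries that share the 2 treatments. For *Elane*, r was 0.989 with *Prtn3*, 0.9745 with *Ctsg*, 0.742 with *Slpi* and 0.669 with *Grn*. *Slpi* and *Grn* had r of 0.978. The 5 genes closest to *Slpi* were *Il11*, *Npc2*, *Ctsd*, *Prr24* and *Thap6* (r 0.998 to 0.994). *Il11*, the gene of the cytokine interleukin 11, had 6.13, 6.75 and 6.39 FPKM with vehicle and 13.6, 11.4 and 12.3 with PTH, so that its PTH libraries had the same order as those of *Slpi*. The 5 closest to *Elane* were *Mpo*, *Chil3* (listed under its older symbol *Chi3l3*), *Col9a3*, *Plek* and *Eid1* (r 0.995 to 0.992). *Col9a3*, a cartilage collagen gene, had 3.08, 3.31 and 2.66 FPKM with vehicle and 15.9, 14.2 and 2.96 with PTH. The 5 closest to *Grn* were *Gpr107*, *Kcnn4*, *Bcl2l2*, *Cyb5r3* and *Il1rl2* (r 0.996 to 0.991). *Kcnn4*, a potassium channel gene, had 2.74, 4.78 and 3.92 FPKM with vehicle and 14.7, 14.5 and 16.4 with PTH.

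In MC3T3-E1 cells *Slpi* was high before it was overexpressed. The mock libraries held 377, 396 and 386 FPKM, and the *Slpi* libraries 2105, 1973 and 1848. The groups did not overlap, which 34.9% of genes tested showed in this direction, and the libraries within each group lay close together. The means were 386 ± 9.20 and 1975 ± 128 FPKM (SD, n = 3), a ratio of 5.11. The log2 fold change was 2.35 ± 0.0491 (SE, 95% CI 2.24 to 2.46, limma, adjusted *p* = 3.92e-08), the 18th largest rise of 11466 genes, with an exact permutation *p* of 0.10. This checks the labels, and the FPKM do not tell reads of the vector from those of the gene itself. *Slpi* stood above 99.2% to 99.3% of the listed genes in mock libraries and above 99.8% in *Slpi* libraries.

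The protease genes were at or near 0 in these cells. *Elane* and *Ctsg* were listed at 0 in all 6 libraries. *Prtn3* had 0.231, 0.508 and 0.152 FPKM in mock libraries and 0.363, 0.263 and 0.260 in *Slpi* libraries, from an estimated 4 to 14 reads. The groups overlapped, both means were near 0.3 (0.297 ± 0.187 and 0.295 ± 0.0586, SD, n = 3), and *Prtn3* was under the level needed for the test. So 2 of the 5 genes, *Slpi* and *Grn*, were tested here. *Mpo*, *Ctsc*, *Ms4a3*, *Ngp*, *S100a9* and *Retnlg* were listed at 0 in at least 5 of the 6 libraries, and *Ptprc* had at most 0.016 FPKM. Other listed markers of neutrophils were not at 0, such as *Mmp9* (8.69 to 10.3 FPKM) and *Camp* (0.306 to 1.14). The azurophil granule list summed to 1.29 to 2.06 FPKM over the 6 libraries and the secondary granule list to 0.460 to 1.28. The mature neutrophil list summed to 9.35 to 10.99 FPKM, most of it *Mmp9*. The monocyte and macrophage list summed to 4.81 to 7.25 FPKM and the lymphocyte list to at most 0.176. *Prss57* had 1.08, 1.27 and 1.14 FPKM in mock libraries and 1.69, 1.38 and 1.46 in *Slpi* libraries and was called higher (log2 fold change 0.22, adjusted *p* = 0.0447).

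**Figure D5:**
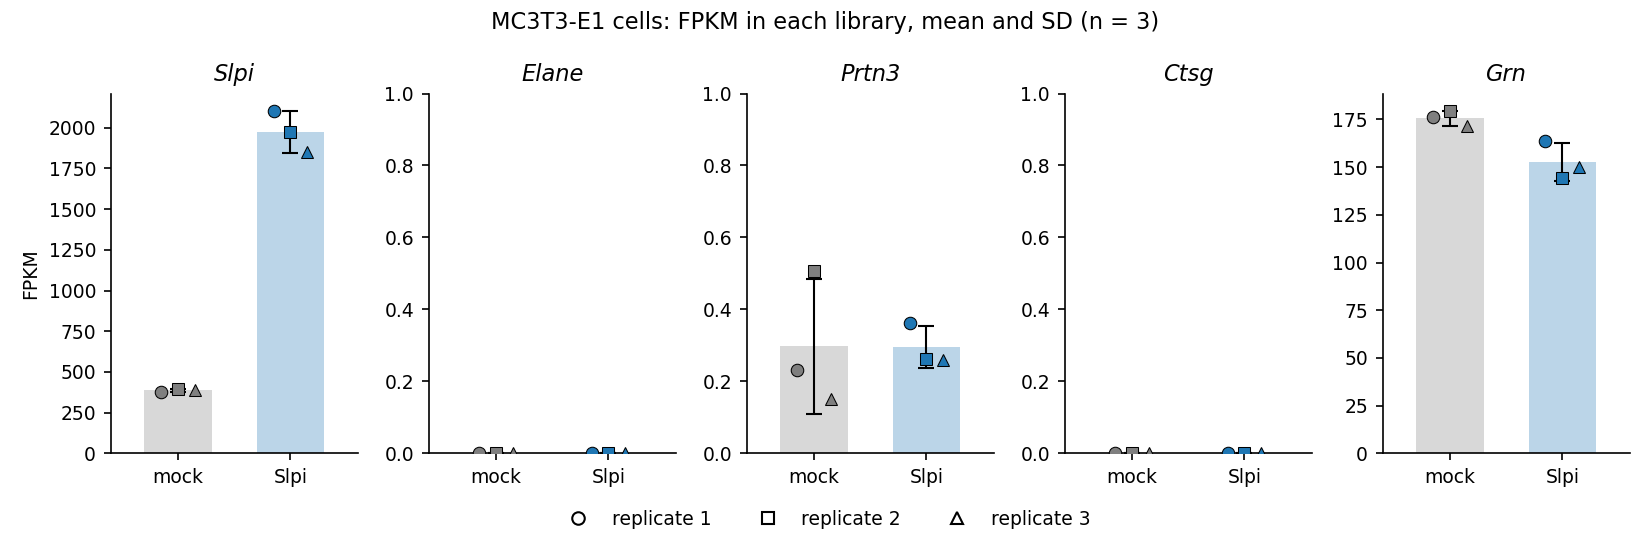
FPKM of the 5 genes (y axes, linear, each with its own scale and 0 to 1 for the proteases) in mock and *Slpi*-overexpressing MC3T3-E1 libraries; points are libraries, with a symbol for each replicate number, bars are means and whiskers are SD (n = 3). *Slpi* was higher and *Grn* lower in every *Slpi* library, and *Elane* and *Ctsg* were listed at 0 in all.

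*Grn* fell in the *Slpi*-overexpressing cells. Mock libraries held 176, 179 and 172 FPKM and *Slpi* libraries 164, 144 and 150. The groups did not overlap, and the highest *Slpi* library was close below the lowest mock library. The means were 176 ± 3.90 and 153 ± 9.97 FPKM (SD, n = 3), a ratio of 0.869. The log2 fold change was -0.20 ± 0.0474 (SE, 95% CI -0.31 to -0.095, limma, adjusted *p* = 0.00587), with an exact permutation *p* of 0.10. A call in this direction was made for 28.9% of all genes, and 32.2% had lower values in groups that did not overlap. *Grn* ranked 2771 by size of fall. *Slpi* was 2.14 to 2.25 times *Grn* in mock libraries and 12.3 to 13.7 times in *Slpi* libraries.

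A part of the progranulin partners was called lower as well. Of 17 tested partners other than *Grn*, 11 were called lower and 0 higher, where 28.9% of all genes were called lower, and 6 did not pass. With *Grn* included the median log2 fold change was -0.21, against 0.0041 for all genes. *Lrp1* had 219 to 228 FPKM in mock and 145 to 167 in *Slpi* libraries (log2 fold change -0.53, adjusted *p* = 5.02e-05), *Ctsl* 64.3 to 65.1 and 50.4 to 53.2 (-0.32, adjusted *p* = 6.81e-05), and *Ctsb* 156 to 160 and 121 to 129 (-0.35, adjusted *p* = 7.56e-05). *Hexa* (0.03, adjusted *p* = 0.410) and *Tfeb* (-0.03, adjusted *p* = 0.663), the partners with the largest rises under PTH and named for that, were not called. Of the 4 tested metalloproteinases, *Adamts12* was called higher (0.47, adjusted *p* = 0.000256) and *Mmp14* (-0.14, adjusted *p* = 0.00749) and *Adamts7* (-0.27, adjusted *p* = 0.0267) lower.

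Calls in other lists are to be read against all genes tested in the *Slpi* comparison, of which 28.9% were called lower and 31.9% higher. Of the 13 SLPI partners and NF-κB genes, 9 were called lower and 1 higher, with a median log2 fold change of -0.19. *Anxa2* had 1229 to 1245 FPKM in mock and 1029 to 1053 in *Slpi* libraries (log2 fold change -0.25, adjusted *p* = 0.000163), and *Nfkb1* (-0.19, adjusted *p* = 0.00116) and *Nfkb2* (-0.24, adjusted *p* = 0.00056) fell as well. All 4 tested factors of granule genes, *Cebpa*, *Cebpb*, *Cebpd* and *Runx1*, were called lower, by log2 fold changes from -0.54 to -0.73. Of the 4 tested inhibitors of the same enzymes, *Serpina3g* was called higher (0.32, named after its values were seen), and *Serpinb1a* (-0.74), *Serpinb6b* (-0.61) and *Serpinb6a* (-0.27) lower. *Wfikkn2* was the other WAP gene called (-0.34, adjusted *p* = 0.00678, named after its values were seen). Among serine proteases of other kinds, *Gzmc* (-0.78), *Gzmb* (-0.76) and *Cela1* (-0.67) were lower and *Plau* (0.23) and *Plat* (0.17) higher. Of 11 osteoblast markers, 8 were called higher (31.9% of all genes) and 1 lower. *Col1a1*, the most abundant of them, had 7237 to 7561 FPKM in mock and 7983 to 8740 in *Slpi* libraries.

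Around the members the *Slpi* libraries showed small calls in both directions. Of all genes tested, 31.9% were called higher and 28.9% lower. Beside *Slpi*, *Matn4* (0.29) was called higher and *Sdc4* (-0.20) lower. Beside *Elane* or *Prtn3*, *Ptbp1* (0.39) was higher and *Med16* (-0.30), *R3hdm4* (-0.24) and *Palm* (-0.18) were lower. Beside *Grn*, *Fam171a2* (-0.47) and *Itga2b* (-0.21) were lower. *Slc25a39* (0.20) and *Rundc3a* (0.26, at most 1.01 FPKM) were higher there, and *Gpatch8* (0.08) was not called. Genes with the most similar pattern, among 8461 with a mean of at least 5 FPKM, were *Lifr*, *Helb*, *Gpsm2*, *Zfp207* and *Ostc* for *Slpi* (r 1.00 to 0.999) and *Tnfaip2*, *H2-T23*, *Tax1bp3* and *S100a10* for *Grn* (r 0.999 to 0.993). *Lifr*, the receptor of leukemia inhibitory factor, had 21.2 to 21.5 FPKM in mock and 31.0 to 32.0 in *Slpi* libraries.

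Side by side, the order of the 5 genes differed between the sorted osteoblasts and the line. With vehicle the means ran *Grn* 29.9, *Elane* 6.27, *Prtn3* 4.98, *Ctsg* 2.49 and *Slpi* 2.21 FPKM, and those of *Elane* and *Prtn3*, like those of *Ctsg* and *Slpi*, were closer than the spread between libraries. With PTH they ran *Grn* 48.0, *Elane* 42.0, *Slpi* 28.2, *Prtn3* 27.3 and *Ctsg* 15.4, and neighbours in this order did not differ beyond their SD. In mock cells they ran *Slpi* 386, *Grn* 176 and *Prtn3* 0.297. The experiments were normalized separately and the labels name different library kits, so no test was made between them.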

How the data were processed

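RNA-Seq was measured in 12 libraries. Per the submitters' processing notes and the methods, the authors mapped reads to mm10 with TopHat2 2.0.13, Bowtie2 2.2.3 and SAMtools 0.1.19 and deposited FPKM per gene from Cuffnorm (Cufflinks 2.2.1). The annotation is not given in the sources used here. Sorted cells were amplified with SMART-Seq v4; for MC3T3-E1 cells the labels name a stranded TruSeq kit, but the methods do not. PTH replicate 3 was identified by its title.

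From these files, log2(FPKM + 1) was fitted per experiment with limma 3.58.1 (eBayes with trend, R 4.3.3), 3 libraries against 3 without a block, with Benjamini-Hochberg adjustment over all genes tested. The pseudocount makes fold changes of low genes too small. Fits were tested on simulated data. Exact permutation tests used scipy 1.17.1 in Python 3.11.15 (numpy 2.4.6, pandas 2.3.3). Genes were placed with GENCODE M21, and older symbols were matched through RefSeq synonyms. Promoters of all 5 genes matched by symbol in RefSeq (GRCm38.p6). Reads are estimates, as FPKM times transcript length over the step of 1 read, and cover counting error only.

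The members and lists were chosen with earlier results of these data known. From each pathway list, genes called with at least a 2-fold change were named, at most 3 per direction, or otherwise the 3 with the smallest *p*; from each marker list the most abundant gene and those at 0; beside them 3 neighbours per side and the 5 genes with the highest r. Any other gene was named after its values were seen. A gene was left out of the progranulin list and of the similar genes after the analysis and is not reported here. Alternatives were a pseudocount of 0.1, no filter, a mean FPKM of at least 1, rescaling to TPM, quantile normalization, no trend, a replicate block and leaving out each library. All 12 libraries entered the reported values.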

Additional observations from a re-analysis of the deposited data

How the results depend on the processing

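*Slpi* and *Grn* kept their direction and call under all 7 other settings in both comparisons, and lost the PTH call only without vehicle replicate 1 or 2. Over left-out libraries the log2 fold changes with PTH ran from 2.93 to 3.37 (*Slpi*), 1.44 to 3.02 (*Elane*), 1.44 to 2.72 (*Prtn3*), 1.21 to 2.75 (*Ctsg*) and 0.63 to 0.71 (*Grn*), and in MC3T3-E1 cells from 2.30 to 2.40 (*Slpi*) and -0.25 to -0.16 (*Grn*). *Elane*, *Prtn3* and *Ctsg* were called without PTH replicate 3, and *Prtn3* also with a replicate block (1.94, adjusted *p* = 0.0340). Whether same-numbered libraries belong together was not tested. Same-numbered deviations had r of 0.029 to 0.102 with PTH and -0.052 to 0.039 with *Slpi*. PTH replicates 2 and 3 had their highest r with the vehicle library of the same number (0.073 and 0.102). PTH replicate 1 was closer to vehicle replicate 2 (0.069) than to vehicle replicate 1 (0.029). The block gave 1028 genes higher and 1234 lower with PTH (830 and 1151 without) and 3752 and 3420 with *Slpi* (3658 and 3315). With PTH, 517 genes were higher without a filter, 479 higher and 1095 lower as TPM, and 161 and 566 at 2-fold and unadjusted *p* under 0.05. With *Slpi* these were 2464 and 4574 as TPM and 86 and 44 at 2-fold. Leaving out a library gave 0 to 674 higher and 0 to 895 lower with PTH, the lowest without vehicle replicates 1 and 2. The progranulin partners, examined under these settings after seeing the data, gave 6 to 9 of 17 called higher with PTH under other settings and 0 to 8 over left-out libraries, and 10 to 13 and 11 to 12 called lower with *Slpi*. The causes were not tested. Depth limits *Slpi*, *Ctsg* and *Prtn3* at their low levels, where 4 to 32 reads were estimated.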
